A study of Mus musculus with 4 samples.

Results

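The genes of MHC class I antigen presentation were examined in CD45+ immune cells of the mouse dura mater after AAV-mVEGF-C or AAV-CTRL delivery. The 10 genes were chosen by name for their role in the pathway among the 55401 genes of the deposited tables: the heavy chain genes *H2-K1*, *H2-D1*, and *H2-T23*, the light chain gene *B2m*, the transporter genes *Tap1* and *Tap2*, the tapasin gene *Tapbp*, the immunoproteasome genes *Psmb8* and *Psmb9*, and the transactivator gene *Nlrc5*. All 10 passed the filter on low counts, as did 19806 genes in all. No difference between AAV-mVEGF-C and AAV-CTRL was detected for any of the 10, with log2 fold changes from −0.19 for *Psmb8* to 0.12 for *Nlrc5*. The same test called 0 of all 19806 genes, so this count is not particular to the 10. The CPM values of the groups overlapped for each of the 10.

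The mice were WT male C57BL/6J animals that received 2 μl of AAV9 into the cisterna magna at 4 wk of age. The AAV-mVEGF-C vector drives full-length mouse VEGF-C, whereas the product of AAV-CTRL is a soluble piece of mouse VEGFR-3 fused to an immunoglobulin tail that does not bind VEGF-C. Both groups therefore carried the same viral serotype and a secreted transgene product. Viable CD45+ leukocytes were sorted from the enzymatically digested dura of the skullcap. Dural cells of 10 to 12 mice were pooled for a condition, which the labels do not tie to each library by number, and the 2 libraries of a group came from repeated experiments. Total RNA of bulk sorted cells was sequenced, so a lower level of a gene can reflect fewer cells of a type or less RNA per cell, which cannot be told apart. With 2 pools per group, p-values measure the spread between pools and not between single mice.

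MHC class I molecules display short peptides from proteins made inside the cell to CD8 T cells, and are read by inhibitory receptors of NK cells. Proteasomes cut proteins into peptides, the TAP transporter carries the peptides into the endoplasmic reticulum, tapasin holds the empty heavy chain next to TAP, and the heavy chain with its peptide and β2-microglobulin then travels to the cell surface. Nearly all nucleated cells make these molecules, leukocytes at high levels, and interferons raise the whole set, in part through NLRC5 and IRF1.

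NLRC5 does not bind DNA by itself but joins a complex of RFX, CREB/ATF, and NF-Y factors on the promoters of class I genes. The letters that such factors are known to prefer are shown here as background to the promoters, since neither binding nor dependence on NLRC5 was measured. RefSeq promoters on GRCm38.p6 were given for 8 of the 10 genes, all except *Tap2* and *Nlrc5*, and the 250 bases before each RefSeq start were searched on both strands. The windows of *H2-D1*, *Psmb8*, *Psmb9*, and *Tapbp* lie inside the GENCODE spans of these genes given below, since GENCODE places the outermost start further out. The box printed for *H2-D1* thus falls in an exon of a GENCODE transcript. The windows of *H2-T23*, *Tap1*, *B2m*, and a second *H2-K1* start lie in part inside these spans. The *H2-K1* window printed below lies outside. The CRE core TGACG (X2 box) occurred in 17.8% of 32851 windows and CCAAT, the NF-Y box (Y box; ATTGG when read from the other strand), in 33.8%. *B2m*, *H2-K1*, and *H2-D1* carried both boxes at a fixed spacing, TGACG followed by 20 bases and ATTGG, and are printed below in capitals for the boxes and lower case for the bases between them. This spacing was chosen after these promoters had been read. It occurred in 30 of all windows (0.0913%), which belonged to 26 genes, and 4 of these 26 were class I heavy chain genes or *B2m*, the fourth being *H2-M3*.
B2m (chr2:122147609-122147638, plus strand): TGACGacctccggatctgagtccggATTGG
H2-K1 (chr17:34000359-34000388, minus strand): TGACGcgcagtcagctcttacccccATTGG
H2-D1 (chr17:35262993-35263022, plus strand): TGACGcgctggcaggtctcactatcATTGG

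The wider upstream sequences of *B2m* (249 bases) and *H2-K1* (250 bases) are shown as examples of a light chain and a heavy chain promoter, and their windows also held other motifs known from class I promoters. Capitals mark, besides the X2 and Y boxes, the IRF core AANNGAAA (21.3% of all windows; TTTCACTT is a match on the other strand) and, in *H2-K1*, the kappa B core GGGATTCC (0.889% of all windows).
B2m (chr2:122147437-122147685, plus strand): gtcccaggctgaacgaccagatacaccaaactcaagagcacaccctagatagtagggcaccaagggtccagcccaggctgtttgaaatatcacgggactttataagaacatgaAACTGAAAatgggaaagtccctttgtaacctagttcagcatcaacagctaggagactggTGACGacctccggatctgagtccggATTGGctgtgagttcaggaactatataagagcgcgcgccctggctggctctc
H2-K1 (chr17:34000348-34000597, minus strand): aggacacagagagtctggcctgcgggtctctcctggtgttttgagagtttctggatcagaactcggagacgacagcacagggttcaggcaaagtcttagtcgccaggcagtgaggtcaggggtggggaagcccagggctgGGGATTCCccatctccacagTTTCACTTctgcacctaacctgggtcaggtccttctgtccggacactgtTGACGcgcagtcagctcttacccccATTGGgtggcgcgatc
The *H2-D1* window held 1 IRF core and 1 kappa B core as well, and the *H2-T23* window held 2 IRF cores and no kappa B core. The windows of *Tap1*, *Psmb9*, *Tapbp*, and *Psmb8* held neither motif, and none of these 4 or *H2-T23* had the spaced boxes. A match to these letters is a description of the sequence and not a measured binding site.

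Of the 10 genes, 8 lie on chromosome 17 (GRCm38, GENCODE M21), where *Psmb9* (17:34181987-34187764), *Tap1* (17:34187553-34197225), *Psmb8* (17:34197721-34201454), and *Tap2* (17:34203527-34216321) stand next to one another. *Tapbp* (17:33915899-33929292) and *H2-K1* (17:33996017-34000347) lie at lower coordinates, and *H2-D1* (17:35262730-35267499) and *H2-T23* (17:36029773-36032855) at higher ones. *B2m* (2:122147686-122153083) and *Nlrc5* (8:94434356-94527272) are the genes outside this cluster. *Tap1* and *Psmb9* overlap by 212 bases on opposite strands, *B2m* lies wholly within *Patl2* on the other strand, and *H2-T23* lies within the antisense gene *A930015D03Rik*. *Tapbp* overlaps *Zbtb22* over 3422 bases on the same strand, which counting by strand would not resolve. Opposite-strand overlaps with noncoding genes also touch *Tapbp* (*Gm19412*, 1207 bases), *Psmb8* (*Gm20496*, 2139 bases), *Tap2* (*Gm20496*, 1923 bases, and *Gm15821*, 3148 bases), and *Nlrc5* (*9330175E14Rik*, 748 bases). The library kit keeps strand, but the strand setting of the counting is not given in the sources used here, so reads in these overlaps cannot be assigned with certainty. *H2-D1*, *H2-T23*, and *H2-K1* also share sequence with other genes, since 3.59%, 3.15%, and 0.957% of their 100-base windows occur in another gene. The windows were pooled over all annotated transcripts of a gene and are not a share of its reads. The counts of these genes are thus uncertain to a degree that was not measured.

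The libraries held between 32520709 and 46409700 reads assigned to genes, of which the 10 genes took between 158826 and 204579. AAV-CTRL 1 stood apart from the other 3 libraries, with the fewest detected genes (20993, against 29230 to 37535) despite the highest read total. *Ptprc*, which encodes CD45, was at 191 to 215 TPM (a level scaled for gene length and for the library total) in the 4 libraries, and no defining marker of any of the 13 cell type lists was at 0 in all libraries. The counts of markers without overlap in the next sentences stand beside 16.8% of all genes tested that lay higher in both AAV-mVEGF-C libraries in CPM and 15.2% that lay lower. In TPM, the scale of the sums below, 8.92% of all genes tested lay higher in both and 28.5% lower. The summed TPM of 10 macrophage markers was 760 and 1234 in the controls and 589 and 918 after AAV-mVEGF-C, that of 9 dendritic cell markers 3969 and 5361 against 3886 and 4841 (4 of 9 markers higher in CPM without overlap and 0 lower), and that of 8 neutrophil markers 25095 and 12162 against 14765 and 17122. B cell markers summed to 141 and 324 against 119 and 136 TPM (1 of 8 lower without overlap, and 8 of 8 log2 fold changes below 0). T cell markers summed to 154 and 165 against 193 and 181 (3 of 8 higher without overlap). Pan-leukocyte markers summed to 1443 and 1306 against 1152 and 1285. The B cell and pan-leukocyte sums were thus lower in both AAV-mVEGF-C libraries. The plasma cell list was the one list with all its markers higher in both AAV-mVEGF-C libraries, 6 of 6, with sums of 184 and 222 against 447 and 457 TPM. Markers of cells that may accompany the sort also had lower sums in both AAV-mVEGF-C libraries. These went from 93.4 and 167 to 50.1 and 77.4 TPM for fibroblasts (5 of 7 markers lower in CPM without overlap) and from 82.0 and 122 to 17.8 and 35.3 for erythroid cells (4 of 5). They went from 15.3 and 27.6 to 8.05 and 10.1 for osteoblasts (3 of 5), and from 24.8 and 21.9 to 14.6 and 16.7 for endothelial cells (4 of 8 lower and 1 higher). NK cell sums were 46.5 and 50.5 against 25.7 and 37.5 TPM (4 of 6), and neural sums 22.6 and 22.8 against 18.9 and 21.6 (1 of 5, with 3 of 5 log2 fold changes above 0).

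By level, the 10 genes spanned a wide range in these cells. *B2m* was the highest, at a mean of 1055 TPM over the 4 libraries (range 926 to 1165), and ranked 29 of 21897 protein-coding genes. *H2-K1* followed at 661 TPM (596 to 759; rank 52) and *H2-D1* at 652 TPM (544 to 707; rank 55). The ranges of these 2 heavy chain genes overlapped, and both lay below every value of *B2m*. *Psmb8* was at 170 TPM (139 to 199; rank 272), above every value of *Tapbp*, at 95.8 TPM (77.8 to 109; rank 491). *Tapbp* was not separated from *H2-T23*, at 83.9 TPM (69.3 to 100.4; rank 573). *Tap1* was at 40.6 TPM (37.6 to 42.6; rank 1356), below every value of *H2-T23* and above every value of *Psmb9*. *Psmb9* at 28.4 TPM (20.3 to 34.8; rank 2090), *Tap2* at 24.7 TPM (21.7 to 28.3; rank 2421), and *Nlrc5* at 20.5 TPM (12.4 to 25.3; rank 2916) overlapped from neighbor to neighbor.

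**Figure D1:**
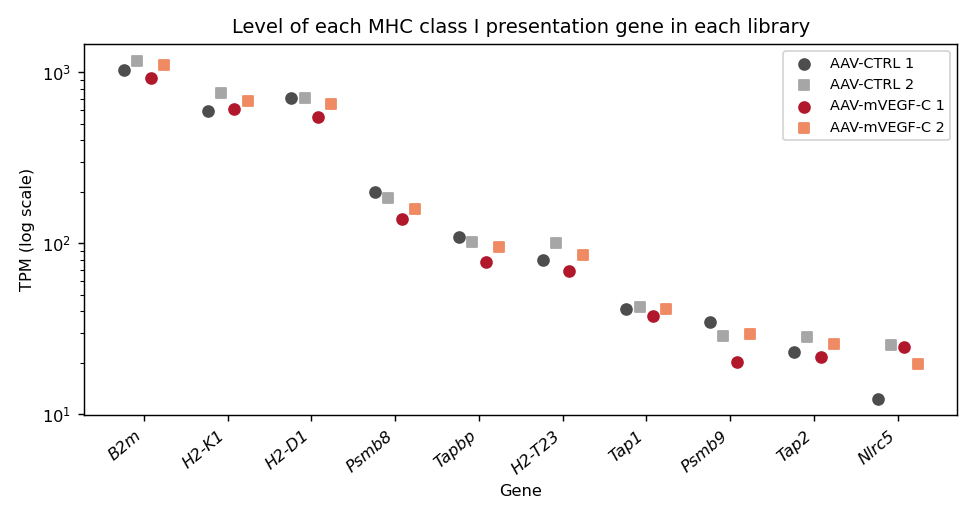
Level of each of the 10 genes in each library, in TPM on a log axis, ordered by the mean over the 4 libraries; circles are the libraries numbered 1, squares those numbered 2, gray AAV-CTRL, and red or orange AAV-mVEGF-C. The genes run from *B2m* at 926 to 1165 TPM down to *Nlrc5* at 12.4 to 25.3 TPM, and the 4 libraries of most genes lie close together compared with the distance between genes.

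To ask whether AAV-mVEGF-C altered class I presentation at the RNA level, the groups were compared gene by gene on CPM (reads of a gene scaled to the TMM-normalized library size). *H2-K1*, a classical heavy chain that presents peptides to CD8 T cells, measured 874 CPM in AAV-CTRL 1 and 1068 CPM in AAV-CTRL 2, against 943 and 1114 CPM in AAV-mVEGF-C 1 and 2. In each group the second library was the higher one, and the groups overlapped. The log2 fold change was 0.083 (SE 0.19; 95% interval −0.37 to 0.54). The adjusted p of this and of each of the other 9 genes was 0.999 in the quasi-likelihood test of edgeR. *H2-D1*, the other classical heavy chain of this strain, was at 1710 and 1626 CPM in the controls and 1434 and 1750 CPM after AAV-mVEGF-C. Both control values lay between those of the treated libraries, and the log2 fold change was −0.067 (SE 0.18; 95% interval −0.50 to 0.36). *H2-T23*, which encodes a non-classical heavy chain seen by NK and T cell receptors, was at 165 and 192 CPM in the controls and 153 and 189 CPM after AAV-mVEGF-C, a log2 fold change of −0.061 (SE 0.18; 95% interval −0.50 to 0.38). *B2m*, the invariant light chain without which heavy chains do not reach the surface stably, was at 871 and 912 CPM in the controls and 832 and 980 CPM after AAV-mVEGF-C. It had a log2 fold change of 0.023 (SE 0.17; 95% interval −0.39 to 0.44), with the 2 control values again inside the treated range.

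Of the peptide transporter, *Tap1* was at 150 and 162 CPM in the controls and 141 and 176 CPM after AAV-mVEGF-C, with a log2 fold change of 0.016 (SE 0.17; 95% interval −0.41 to 0.44). *Tap2*, its partner subunit, was at 94.4 and 104 CPM in the controls and 90.9 and 111 CPM after AAV-mVEGF-C, with a log2 fold change of 0.024 (SE 0.17; 95% interval −0.39 to 0.44). Both subunits had the lowest value in AAV-mVEGF-C 1 and the highest in AAV-mVEGF-C 2, with the controls between. *Tapbp*, which encodes the chaperone tapasin, was at 326 and 292 CPM in the controls and 266 and 317 CPM after AAV-mVEGF-C, a log2 fold change of −0.084 (SE 0.17; 95% interval −0.50 to 0.34). Here AAV-CTRL 1 was the highest library, and the groups overlapped.

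The immunoproteasome subunits had the lowest fold changes of the set. *Psmb8*, a catalytic subunit that replaces *Psmb5* in the immunoproteasome, was at 231 and 200.04 CPM in the controls and 176 and 201 CPM after AAV-mVEGF-C. AAV-CTRL 2 and AAV-mVEGF-C 2 were nearly equal, and the log2 fold change was −0.19 (SE 0.17; 95% interval −0.60 to 0.22). *Psmb9*, which replaces *Psmb6*, was at 46.3 and 38.9 CPM in the controls and 33.1 and 42.2 CPM after AAV-mVEGF-C, with a log2 fold change of −0.18 (SE 0.20; 95% interval −0.67 to 0.31). For both subunits the highest library was AAV-CTRL 1 and the lowest AAV-mVEGF-C 1. *Nlrc5*, the transactivator of class I genes, was at 108 and 138 CPM in the controls and 137 and 130 CPM after AAV-mVEGF-C, with a log2 fold change of 0.12 (SE 0.18; 95% interval −0.31 to 0.56). The value of AAV-CTRL 1 was the low one, and the other 3 libraries lay close together.

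**Figure D2:**
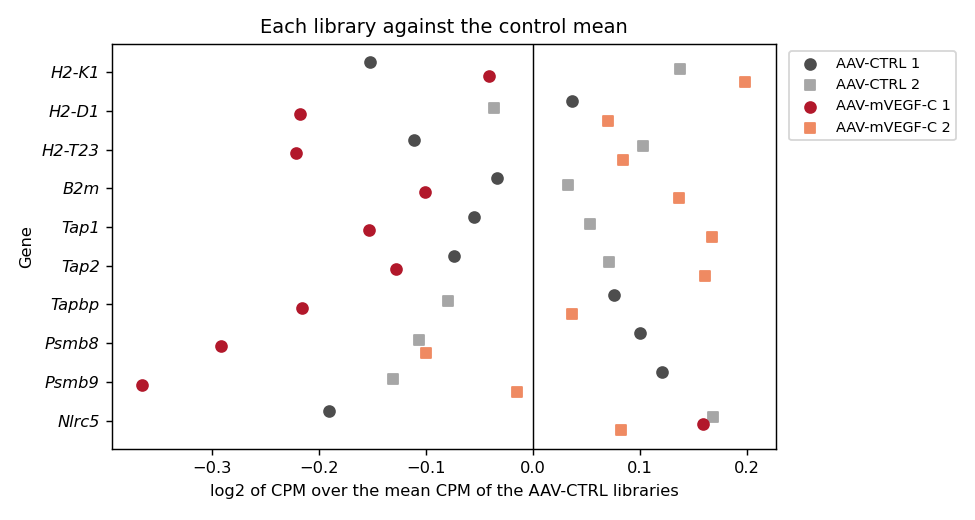
CPM of each gene in each library on a log2 axis, relative to the mean CPM of the AAV-CTRL libraries, which is at 0; circles are the libraries numbered 1 and squares those numbered 2, gray AAV-CTRL, and red or orange AAV-mVEGF-C. AAV-mVEGF-C 1 is the lowest library for 8 of the 10 genes, *H2-K1* and *Nlrc5* being the exceptions, and in every row the gray and the colored points overlap.

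Over the set, 5 genes had a log2 fold change above 0 and 5 below, with a median of −0.022 against 0.0034 over all 19806 genes tested. Of all genes tested, 0 had an adjusted p under 0.05 in edgeR (0%), so that 0 of 10 here was also the background. At an unadjusted p under 0.05, 523 genes passed (2.64%), with 0 of the 10 among them. DESeq2 called 77 of 19788 genes (0.389%), also with 0 of the 10, each of which had an adjusted p of 0.999867. Both AAV-mVEGF-C libraries lay above both AAV-CTRL libraries in CPM for 16.8% of all genes tested and below for 15.2%, and for none of the 10.

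The precision of these comparisons was close to what the design gave for abundant genes, and better than for the average gene. The median SE of the log2 fold change was 0.175 for the 10 genes, against 0.173 for the 1937 tested genes of at least 100 mean CPM and 0.338 for all genes tested. The 95% intervals of the 10 genes reached from 0.630-fold at the lowest, for *Psmb9*, to 1.47-fold at the highest, for *Nlrc5*. For *B2m* the interval ran from 0.763-fold to 1.35-fold. With 2 pools per group, changes within these bounds could not be told from no change.

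**Figure D3:**
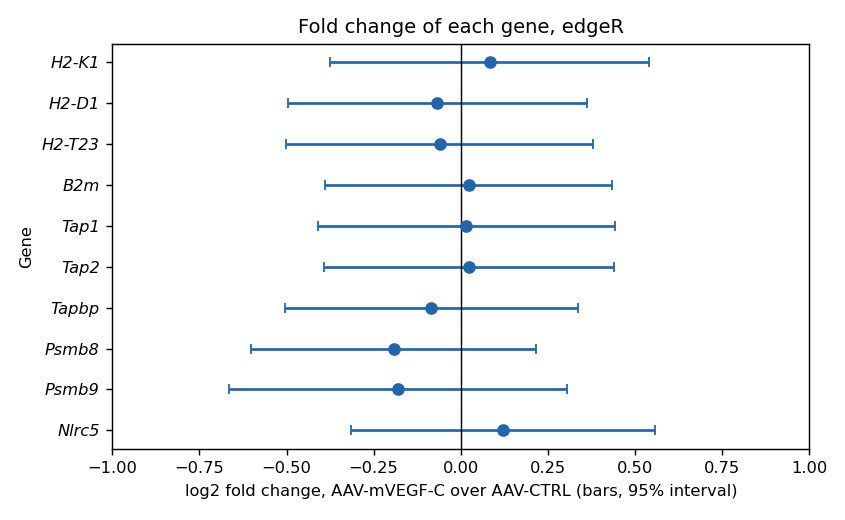
Log2 fold change of each gene, AAV-mVEGF-C over AAV-CTRL, from edgeR's quasi-likelihood fit (points) with its 95% interval (bars). Every interval includes 0, and the outermost bounds are −0.67 for *Psmb9* and 0.56 for *Nlrc5*.

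The pools of one group were also compared with each other in CPM. AAV-mVEGF-C 2 exceeded AAV-mVEGF-C 1 for 9 of the 10 genes, with a median log2 difference of 0.27 and a highest value of 0.35, and *Nlrc5* at −0.076 was the exception. The same difference had a median of 0.0031 over all genes tested and of 0.079 over tested genes of at least 100 mean CPM, of which 1309 were higher in AAV-mVEGF-C 2 and 628 lower. Between the controls, AAV-CTRL 2 was higher for 6 genes and lower for 4, from −0.25 for *Psmb9* to 0.36 for *Nlrc5*, with a median of 0.087. This control difference had a median of 0.029 over all genes tested and of −0.089 over tested genes of at least 100 mean CPM, of which 758 were higher in AAV-CTRL 2 and 1178 lower. The experiments, numbered as in the sample labels, differed in direction. The table's own column labels carry other numbers, so it is not settled which pools were processed side by side. Within experiment 1, AAV-mVEGF-C was lower than AAV-CTRL for 8 of the 10 genes (median log2 difference −0.10), and within experiment 2 it was higher for 8 of 10 (median 0.097). With the numbers crossed, AAV-mVEGF-C 1 was below AAV-CTRL 2 for 10 of 10 genes (median −0.18), and AAV-mVEGF-C 2 was above AAV-CTRL 1 for 7 of 10 (median 0.18). None of these pairs across groups was compared over all genes, so their counts cannot be read as particular to the 10.

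The fits that left out 1 library had a single library in one group, which is assumed to vary like the pair of the other group, so the absence of a call among the 10 genes there says little about stability. The direction moved with the library left out. Without AAV-CTRL 1, the library that stood apart, 10 of 10 log2 fold changes were below 0 (−0.16 for *H2-T23* to −0.0048 for *Tapbp*; median −0.047). Without AAV-CTRL 2, 6 were above 0 (median 0.049), without AAV-mVEGF-C 1, 8 were above 0 (median 0.092), and without AAV-mVEGF-C 2, 1 was above 0 (median −0.18). The medians over all genes tested were −0.0034, 0.062, −0.014, and −0.0058 in the same order of fits. *Psmb8* and *Psmb9* were below 0 in each of these 4 fits, from −0.30 to −0.086 and from −0.37 to −0.0099.

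On the TPM scale, which weighs each gene by its length and by the composition of the whole library, the values of 4 genes did not overlap. *H2-D1* was at 707 and 704 TPM in the controls and 544 and 654 TPM after AAV-mVEGF-C. *Psmb8* was at 199 and 183 TPM against 139 and 158 TPM. *Tapbp* was at 109 and 102 TPM against 77.8 and 94.9 TPM. *Tap1*, at 41.2 and 42.6 TPM against 37.6 and 41.1 TPM, was lower by a narrow margin. That made 4 of 10 genes with both AAV-mVEGF-C libraries below both AAV-CTRL libraries, where 28.5% of all genes tested did so, and 0 of 10 above, where 8.92% did. On TPM with a pseudocount of 1, 1 of the 10 log2 fold changes was above 0 and 9 were below, in place of 5 and 5. Their sizes grew to −0.36 for both *Psmb8* and *Psmb9*, −0.29 for *Tapbp*, −0.24 for *H2-D1*, −0.22 for *H2-T23*, and 0.29 for *Nlrc5*. The median log2 fold change on this scale was −0.16 for the 10 genes and −0.078 for all genes tested, and in limma 0 of the 19806 genes, the 10 included, passed an adjusted p under 0.05 (902 had an unadjusted p under 0.05, none of them among the 10). The 7SL RNA gene *Rn7s1* alone took 24.8% to 29.4% of all TPM. Its part in the TPM values was not tested.

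Summed, the 10 genes made up 0.283% and 0.314% of all TPM in the controls, against 0.247% and 0.289% after AAV-mVEGF-C. The groups overlapped, at 0.298% ± 0.0221 (SD, n = 2) and 0.268% ± 0.0296 (exact two-sided permutation test, p = 0.667, where 2 against 2 pools cannot give less than 0.333). As a share of reads, the sums were 0.441% and 0.488% against 0.432% and 0.488% (p = 1 in the same exact test). The summed TPM of the 10 genes was highest in AAV-CTRL 2, at 3139, then 2891 in AAV-mVEGF-C 2, 2827 in AAV-CTRL 1, and 2473 in AAV-mVEGF-C 1. The macrophage and dendritic cell marker sums given above had the same order of libraries. The dendritic sum was mostly that of the MHC class II genes *Cd74* and *H2-Aa* (2831 and 1022 of 3969 TPM in AAV-CTRL 1), while 8 of the 9 dendritic markers had a log2 fold change above 0 in CPM. The part of these cells in the class I levels was not tested.

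Because the immunoproteasome subunits replace constitutive ones, ratios within a library were also compared, which do not depend on library scaling. *Psmb8* exceeded *Psmb5* at 6.36 and 6.54 times its TPM in the controls and 6.58 and 5.93 times after AAV-mVEGF-C. *Psmb9* stood at 0.644 and 0.603 of *Psmb6* in the controls and at 0.545 and 0.700 after AAV-mVEGF-C. *Psmb10*, the remaining inducible catalytic subunit, stood at 1.03 and 1.41 of *Psmb7* in the controls and at 1.22 and 1.30 after AAV-mVEGF-C. None of these ratios separated the groups, whose means were 6.45 ± 0.128 and 6.26 ± 0.458, 0.623 ± 0.0293 and 0.623 ± 0.110, and 1.22 ± 0.272 and 1.26 ± 0.0539 (SD, n = 2; exact permutation test, p = 1 each).

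The sum of the classical heavy chains stood at 1.27 and 1.26 times the *B2m* level in the controls and 1.25 and 1.21 times after AAV-mVEGF-C. This was the one of the 4 ratios tested whose groups did not overlap, at 1.26 ± 0.0103 and 1.23 ± 0.0286 (SD, n = 2). The difference of −0.035 had an exact permutation p of 0.333, the smallest this design allows, and an adjusted p of 1 over the 4 ratios. The ratio of *H2-K1* to *H2-D1*, added after the data had been seen and not tested, was 0.842 in AAV-CTRL 1 and 1.04 to 1.12 in the other libraries.

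**Figure D4:**
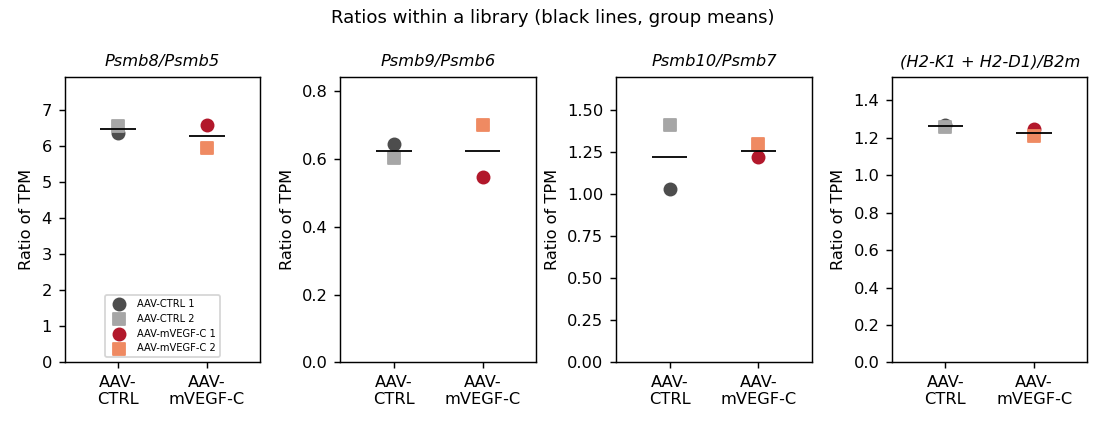
Ratios of TPM within each library for *Psmb8*/*Psmb5*, *Psmb9*/*Psmb6*, *Psmb10*/*Psmb7*, and the summed heavy chains over *B2m*; points are libraries, black lines are group means, and each axis starts at 0. The groups overlap in the first 3 panels, and in the last all 4 libraries lie between 1.21 and 1.27.

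The other genes of the pathway were grouped into 6 lists of 68 genes, of which 65 were tested. Of these, 0 had an adjusted p under 0.05 in edgeR, 30 had a log2 fold change above 0, and 35 below, with a median of −0.012. *H2-Q10*, a class I gene best known from liver, was the one gene with an unadjusted p under 0.05 (0.0375 from edgeR's quasi-likelihood fit; adjusted p = 0.999). It was at 3.96 and 10.2 CPM in the controls and 14.3 and 18.7 CPM after AAV-mVEGF-C, a log2 fold change of 1.22 (SE 0.46). The treated libraries were both above the controls, and AAV-CTRL 1, which stood apart, was the lowest. Without AAV-CTRL 1 the log2 fold change of *H2-Q10* was 0.69 (adjusted p = 0.360 in edgeR), and without AAV-CTRL 2 it was 2.05, with an adjusted p of 0.00658 that rests on AAV-CTRL 1 as the lone control. Its adjusted p was 0.422 in DESeq2. Of its 100-base windows, 8.01% occur in another gene, most often in *H2-Q7*, so its count is uncertain. The 0.957% of *H2-K1* windows that occur in another gene all occur in *H2-Q10*. Across libraries, *H2-Q10* drew 177 to 593 reads, far below *H2-K1* (35311 to 39065) and *H2-Q7* (7391 to 9306). What part of the *H2-Q10* count came from these more abundant genes was not tested.

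Among the 17 other class I heavy chain and class I-like genes, 15 were tested, 11 lay above 0 and 4 below. The groups did not overlap for 4 of the 15, all with AAV-mVEGF-C higher (*H2-Q2*, *H2-Q7*, *H2-Q10*, and *H2-M5*). Of all genes tested, 16.8% lay higher without overlap and 15.2% lower. AAV-CTRL 1 was the lowest library for each of the 4. *H2-Q7* was at 165 and 230 CPM in the controls and 238 and 234 CPM after AAV-mVEGF-C, and 12.0% of its windows occur in another gene. *H2-Q2* had 3 and 9 control reads, and 27 and 19 after AAV-mVEGF-C. The median log2 fold change of the 15 genes was 0.13. The range ran from −0.16 for *Cd1d1*, which presents lipids to NKT cells, to 2.00 for *H2-M5* (SE 1.93), which was sparse, with 0 and 7 control reads and 12 and 16 after AAV-mVEGF-C. *H2-T3*, *H2-Bl*, and, from the interferon list, *Ifnb1* did not pass the filter on low counts.

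Of the 9 proteasome and activator genes, 8 lay below 0 and 1 above, with a median of −0.17 and 0 past an unadjusted p of 0.05 in edgeR. The constitutive catalytic subunits *Psmb5*, *Psmb6*, and *Psmb7* had log2 fold changes of −0.14, −0.19, and −0.17, next to the −0.19 of *Psmb8* and −0.18 of *Psmb9*. *Psmb10* was the one above 0, at 0.046. The lowest was *Psme2*, a subunit of the interferon-inducible proteasome activator, at 85.5 and 64.8 CPM in the controls and 50.4 and 64.3 CPM after AAV-mVEGF-C (log2 fold change −0.39, SE 0.21). Left out one at a time, the libraries moved this value to −0.18 without AAV-CTRL 1, −0.58 without AAV-CTRL 2, −0.22 without AAV-mVEGF-C 1, and −0.58 without AAV-mVEGF-C 2, with no adjusted p under 0.05. Its partner subunit *Psme1* was at −0.13 (SE 0.18). The groups of *Psme2* did not overlap, but AAV-CTRL 2 and AAV-mVEGF-C 2 were almost equal.

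Of the 8 genes of peptide trimming, loading, and folding, 3 lay above 0 and 5 below (median −0.046). *Erap1*, the aminopeptidase that trims peptides in the endoplasmic reticulum, was at −0.032, and *Calr*, which encodes the chaperone calreticulin, at −0.095. The range ran from −0.20 for *Pdia3*, the disulfide isomerase that works with tapasin, to 0.28 for *Ide*, which encodes a cytosolic protease. None of the 8 had groups without overlap, where 16.8% of all genes tested lay higher without overlap in CPM and 15.2% lower.

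Of the 12 promoter factors, 7 lay above 0 and 5 below (median 0.017). *Rfx5*, which encodes a subunit of the RFX complex, was at 25.1 and 33.3 CPM in the controls and 34.5 and 33.4 CPM after AAV-mVEGF-C (log2 fold change 0.22, SE 0.20, or 0.027 without AAV-CTRL 1 and 0.43 without AAV-CTRL 2). As for *Nlrc5*, 3 libraries were nearly equal and AAV-CTRL 1 was the low one. The range ran from −0.14 for *Nfyc* to 0.34 for *Nfya*, which encode subunits of the same NF-Y factor, and *Irf1* was at 0.030. Of the 12 interferon ligands, receptors, and signal transducers tested, 6 lay on each side of 0 (median −0.0026), with *Jak2*, which encodes a kinase of the interferon gamma receptor, highest at 0.24. *Ifng*, which encodes interferon gamma, was lowest at −0.34 (SE 0.31), with 8.12 and 7.71 CPM in the controls and 5.22 and 7.29 CPM after AAV-mVEGF-C. In TPM its direction turned, with 6.03 and 6.29 in the controls and 5.80 and 9.99 after AAV-mVEGF-C, and the groups overlapped.

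Of the 9 genes listed as co-receptors and receptors for class I, 2 lay above 0 and 7 below (median −0.10). Whether each of the 9 binds the class I molecules of this strain was not examined. *Cd8a*, the co-receptor of class I-restricted T cells, was at 19.9 and 16.1 CPM in the controls and 16.5 and 17.1 CPM after AAV-mVEGF-C (log2 fold change −0.10, SE 0.21). The range ran from −0.62 for *Klra4* (SE 0.43) to 0.17 for *Klra7*, both genes of the Ly49 receptor family of NK cells. Members of this family are related in sequence, and how far their reads can be told apart was not measured. The NK cell marker sum was lower in both AAV-mVEGF-C libraries, as given above, and its part in the values of these receptors was not tested. Over the 6 lists, 7 of 65 genes had both AAV-mVEGF-C libraries above the controls in CPM and 5 had both below, beside the 16.8% and 15.2% of all genes tested.

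**Figure D5:**
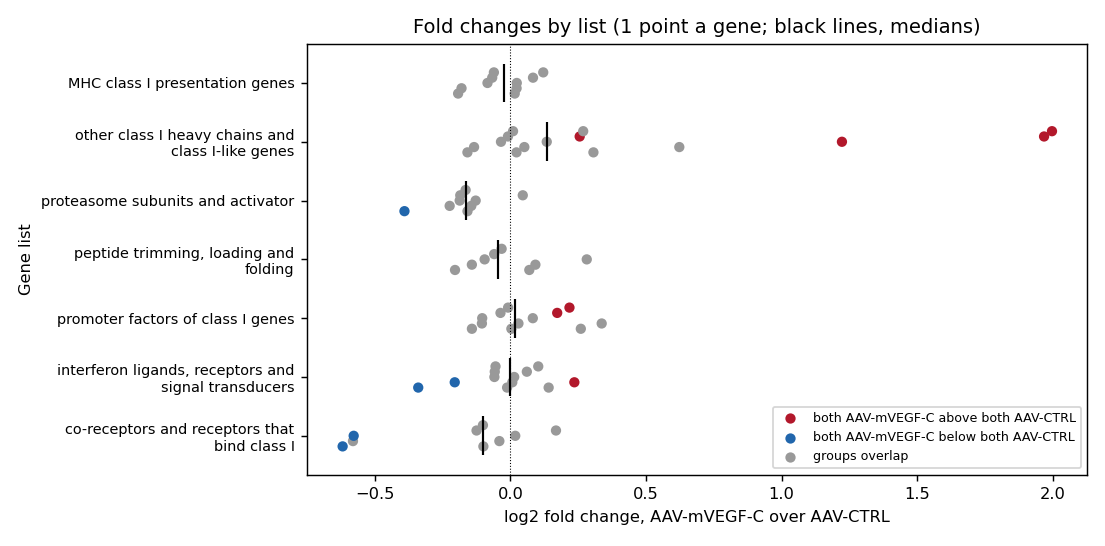
Log2 fold changes, AAV-mVEGF-C over AAV-CTRL, of the 10 genes and of the 6 other lists of the pathway, 1 point per tested gene, with the list medians as black lines; red marks genes with both AAV-mVEGF-C libraries above both AAV-CTRL libraries in CPM, blue genes with both below, and gray genes with overlapping groups. All of the 10 genes are gray and lie between −0.19 and 0.12, while the points near 2 are sparsely counted heavy chain genes.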

How the data were processed

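The study made 4 bulk RNA-seq libraries of pooled dural CD45+ cells, 2 per group. The authors deposited 1 table of estimated counts per gene, not normalized, and 1 table of TPM. The submitters' processing notes list FastQC, Trimmomatic, DRAGEN, Picard, and mm10 without roles; the counting program and its strand setting are not given in the sources used here. Libraries were assigned by their labels.

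Counts (8.18% of values were not whole, also in some library for 4 of the 10 genes) were rounded and tested with edgeR 4.0.16 in R 4.3.3 by the quasi-likelihood test with TMM scaling and filterByExpr, all 4 libraries, no covariate, and Benjamini-Hochberg adjustment over 19806 genes at 0.05. The common dispersion was 0.173. The paper names DESeq2, which was run as an alternative (1.42.0), with limma 3.58.1 (voom, and log2(TPM + 1) or log2(TPM + 0.1)), other scalings and filters, a replicate block, and each library left out. Single values were compared with exact permutation tests over libraries. The edgeR and DESeq2 scripts were tested on simulated data.

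The 10 genes, the 6 pathway lists, and the 13 marker lists were chosen with earlier results of these data known. The text names all 10 genes, a preset part of the pathway lists (1 gene of which is not reported here), and their extremes. *Ptprc* was preset as the gene of the sorting marker. *H2-Q2*, *H2-Q7*, and *H2-M3*, and the genes that overlap the 10 genes, fall outside this rule and were named after their values had been seen. *Rn7s1* and the marker genes *Cd74* and *H2-Aa* fall outside this rule as well. Gene positions were taken from GENCODE M21 (GRCm38), matched by identifier without version. *H2-D1* alone of the 10 has another version there. Promoter sequences are from RefSeq (GRCm38.p6).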

Additional observations from a re-analysis of the deposited data

How the results depend on the processing

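None of the 10 genes was called under any of the 9 alternatives or the 4 fits that left out 1 library, in which the lone library of a group was assumed to vary like the other group. Over all genes, the count of calls was 77 with DESeq2, 268 of 40674 without a filter, and 0 to 1798 with 1 library left out (212 without AAV-CTRL 1, 1798 without AAV-CTRL 2, 2 without AAV-mVEGF-C 1). A paired fit that took the numbers of the experiments as a replicate block called 11 genes, and the crossed replicate block, chosen after seeing the data, 54. Deviations of same-numbered libraries correlated at r = −0.134 across 19806 genes, so the numbers were not taken to pair the libraries. The block changed no call among the 10 genes, whose median was −0.028. That median was −0.16 on TPM with a pseudocount of 1 and −0.17 with 0.1, and −0.18 to 0.092 with 1 library left out. The median of all genes moved to 0.22 without a filter and to −0.078 and −0.11 on TPM. On TPM with pseudocounts of 1 and 0.1, *H2-K1* reversed to −0.061 and −0.061, *B2m* to −0.11 and −0.11, *Tap1* to −0.089 and −0.091, and *Tap2* to −0.11 and −0.12. *Tap1* was at −0.0037 without a filter. Of the 10 genes, those without overlap between groups numbered 1 without a filter (26.1% of all genes) and 1 with at least 10 reads in every library (32.4%), 4 on TPM with either pseudocount, and 2 to 8 with 1 library left out, where 53.3% to 82.3% of all genes tested did not overlap. With 1 library left out, *H2-K1* ranged from −0.054 to 0.23, *H2-D1* from −0.22 to 0.076, *H2-T23* from −0.22 to 0.092, *B2m* from −0.10 to 0.14, *Tap1* from −0.15 to 0.17, *Tap2* from −0.13 to 0.17, *Tapbp* from −0.22 to 0.043, and *Nlrc5* from −0.048 to 0.31. The group difference of *Psmb9*/*Psmb6* was 0.0017 as a ratio of reads, that of *Psmb10*/*Psmb7* 0.099, and that of the heavy chains over *B2m* −0.069. With 1 library left out, that of *Psmb9*/*Psmb6* ran from −0.078 to 0.077, that of *Psmb8*/*Psmb5* from −0.51 to 0.13, that of *Psmb10*/*Psmb7* from −0.16 to 0.23, that of the heavy chains over *B2m* from −0.055 to −0.015, and that of the summed TPM share from −0.051 to −0.0093 percentage points. The causes of these shifts were not tested.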

Other observations

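*Nlrc5* stood apart from the other class I genes in how its TPM related to its reads. It had 0.119 TPM per CPM in AAV-CTRL 1 and 0.177 in the other control, against 0.175 and 0.155 in the treated libraries 1 and 2. On the log2 scale AAV-CTRL 1 was 0.50 below the mean of the other libraries (−0.50), while the other 9 genes lay between 0.062 and 0.21, with a median of 0.081 over 18268 genes. Of these genes, 4.06% had a lower value than *Nlrc5*. The rank of *Nlrc5* by TPM among protein-coding genes was 4695 in AAV-CTRL 1 and 2191 to 2919 in the other libraries. The cause was not tested.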
